A study of Mus musculus with 18 samples.

Results

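Of the 55487 genes measured in regulatory T (Treg) cells of 6 mouse organs, 10 genes of the NF-kappaB pathway were examined. They were chosen by name and not by a rule on their values, but with earlier results of these data known. Of these, 6 encode proteins that hold the pathway back or modify its output (Nfkbia, Nfkbib, Nfkbie, Nfkbid, Nfkbiz and Tnfaip3) and 4 encode subunits of the transcription factor itself (Nfkb1, Nfkb2, Rel and Relb). All 10 had a mean of at least 1 TPM (a length-normalized share of transcripts) in at least 1 organ and entered the tests. The series set out to compare Treg cells of circulating blood with Treg cells of other organs.

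NF-kappaB is a family of dimeric transcription factors that are held in the cytoplasm by IkappaB proteins. Signals from the T cell receptor, from costimulatory receptors and from cytokine receptors activate kinases that mark the IkappaB proteins for destruction, and the freed dimers enter the nucleus. Among the genes they switch on are those of IkappaB proteins and of A20, an enzyme that edits ubiquitin chains and shuts the signal off, which closes a negative feedback loop. In Treg cells the subunit c-Rel is known for its part in the induction of Foxp3, the factor that defines the lineage. A separate branch of the pathway runs through the kinase NIK and yields dimers of the products of Nfkb2 and Relb.

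The 18 libraries were made from poly(A) RNA of Treg cells, CD4+ Foxp3+ T cells, that were freshly sorted from wild-type mice given no treatment. Each of 6 groups held 3 libraries: lung, liver, bone marrow, spleen, lymph node and peripheral blood. The genotype and the absence of treatment were the same in all groups, so organ is the only labelled difference. The sources used here do not give the age or sex of the mice, the sort gates, how each organ was dissociated, whether animals were pooled, or whether the replicates of a group are separate animals or sorts. The p-values therefore measure the spread between these libraries, which may be technical.

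TPM is length-normalized, so levels of different genes can be set side by side, and it is a share of a library's RNA. It keeps no library depth, and no counting error is given. The number of genes above 0 ran from 14314 in a liver library to 19797 in a bone marrow library. The median coefficient of variation among the 3 libraries, over genes of at least 100 TPM, ran from 2.24% in lymph node to 9.3% in liver. Foxp3 was above 80 TPM in every library, with means from 88.65 TPM in blood to 238.5 TPM in lymph node. The 4 T cell markers Cd3e, Cd3d, Cd3g and Cd4 summed to between 882.6 and 925.5 TPM in blood and to between 1349 and 2226 TPM in the other organs. Blood and bone marrow stood apart from the rest. There, 14 markers of neutrophils and monocytes summed to 28240 to 29100 TPM in blood and to 38460 to 38720 TPM in bone marrow, against at most 1781 TPM elsewhere. Results are therefore also given for spleen, lymph node, liver and lung alone. In bulk RNA, fewer cells of a type and less RNA per cell cannot be told apart.

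As several of these genes are known targets of the pathway they belong to, the 250 bases before each transcription start were searched on both strands for the kappaB consensus, a site of 10 letters. The RefSeq promoter table for GRCm38.p6, a release of the build mm10 named in the submitters' processing notes, held 12 start sites of 7 of the genes, and 3 were not in it (Nfkbiz, Nfkb1 and Relb). A match lay in 8 of the 12 windows and in 6 of the 7 genes, the exception being Nfkbib. Over the whole table, 7.25% of 32851 windows and 8.23% of 27025 genes held a match. Given here, 5′ to 3′ on the gene's strand, are up to 130 bases that end just before the start of Nfkbia, Tnfaip3, Rel and Nfkbie, which had their highest levels in lung and liver, and of Nfkbib, which varied least. The length was chosen after the matches had been seen, and bases in annotated untranslated regions are left out. Capitals mark each match. The stretches are chr12:55492648-55492777 (minus strand) for Nfkbia, chr10:19015411-19015540 (minus) for the first start of Tnfaip3, chr11:23770971-23771099 (minus) for Rel, chr17:45555570-45555699 (plus) for Nfkbie and chr7:28766645-28766734 (minus) for Nfkbib.
Nfkbia: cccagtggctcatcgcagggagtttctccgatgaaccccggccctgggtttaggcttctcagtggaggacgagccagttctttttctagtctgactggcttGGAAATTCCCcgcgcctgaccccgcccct
Tnfaip3: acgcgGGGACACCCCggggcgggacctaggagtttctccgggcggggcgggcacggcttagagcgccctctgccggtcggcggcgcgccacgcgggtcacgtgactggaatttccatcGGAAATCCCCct
Rel: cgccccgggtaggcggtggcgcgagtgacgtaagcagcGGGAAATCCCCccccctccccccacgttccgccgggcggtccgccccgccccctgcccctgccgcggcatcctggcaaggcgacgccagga
Nfkbie: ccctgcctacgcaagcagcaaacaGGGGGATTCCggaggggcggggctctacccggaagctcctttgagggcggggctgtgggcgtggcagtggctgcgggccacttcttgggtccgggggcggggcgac
Nfkbib: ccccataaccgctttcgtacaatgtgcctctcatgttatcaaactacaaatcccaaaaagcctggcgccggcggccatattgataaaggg

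In Nfkbia the match began 29 bases before the start. In Tnfaip3, matches began 125 and 12 bases before the first start, and the second start held 0. Rel held 2 overlapping matches, the one from 92 bases upstream read on both strands and the one from 91 bases upstream on the opposite strand, which share 9 letters and are printed as 1 run of capitals. In Nfkbie the match began 106 bases upstream. The first start of Nfkb2, not printed because its window lies in an annotated untranslated region, held 3 matches, of which 2 overlap, from 39, 38 and 11 bases upstream. Nfkbid held matches only before its second start, from 226 and 181 bases upstream. A match describes the letters and does not show that a factor binds there. Whether matches go with the levels in the organs was not tested.

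All 10 genes differed among the 6 organs (limma F test, adjusted p under 0.05), where 68% of the 16694 genes tested did so. Among spleen, lymph node, liver and lung alone, all 10 again differed, against 57% of the genes tested. Only Nfkbib lost that second call, without lung replicate 1 or with the blood and bone marrow libraries left out of the fit. The range between the highest and lowest organ had a median of 1.97 on the log2(TPM + 1) scale over the 10 genes and of 1.09 over the 10289 genes that reached 10 TPM in an organ. Within the 4 organs the medians were 1.7 and 0.87. On TPM as deposited, lung was the highest organ for 8 of the genes and liver for Nfkbia and Nfkbid, and blood was the lowest for 8, the exceptions being Tnfaip3, lowest in lymph node, and Rel, lowest in bone marrow. The shares of all genes that were highest in lung or lowest in blood were not computed, so these counts have no background. The place of blood turned with the scaling: with libraries scaled to 20 T cell genes, all 10 genes were lower in lymph node than in blood, 9 of them past the test, so that blood was the lowest organ for none. Over the 15 pairs of organs, 109 of 150 differences between 2 organs passed the test, and 33.8% of all such differences over all genes did.

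**Figure D1:**
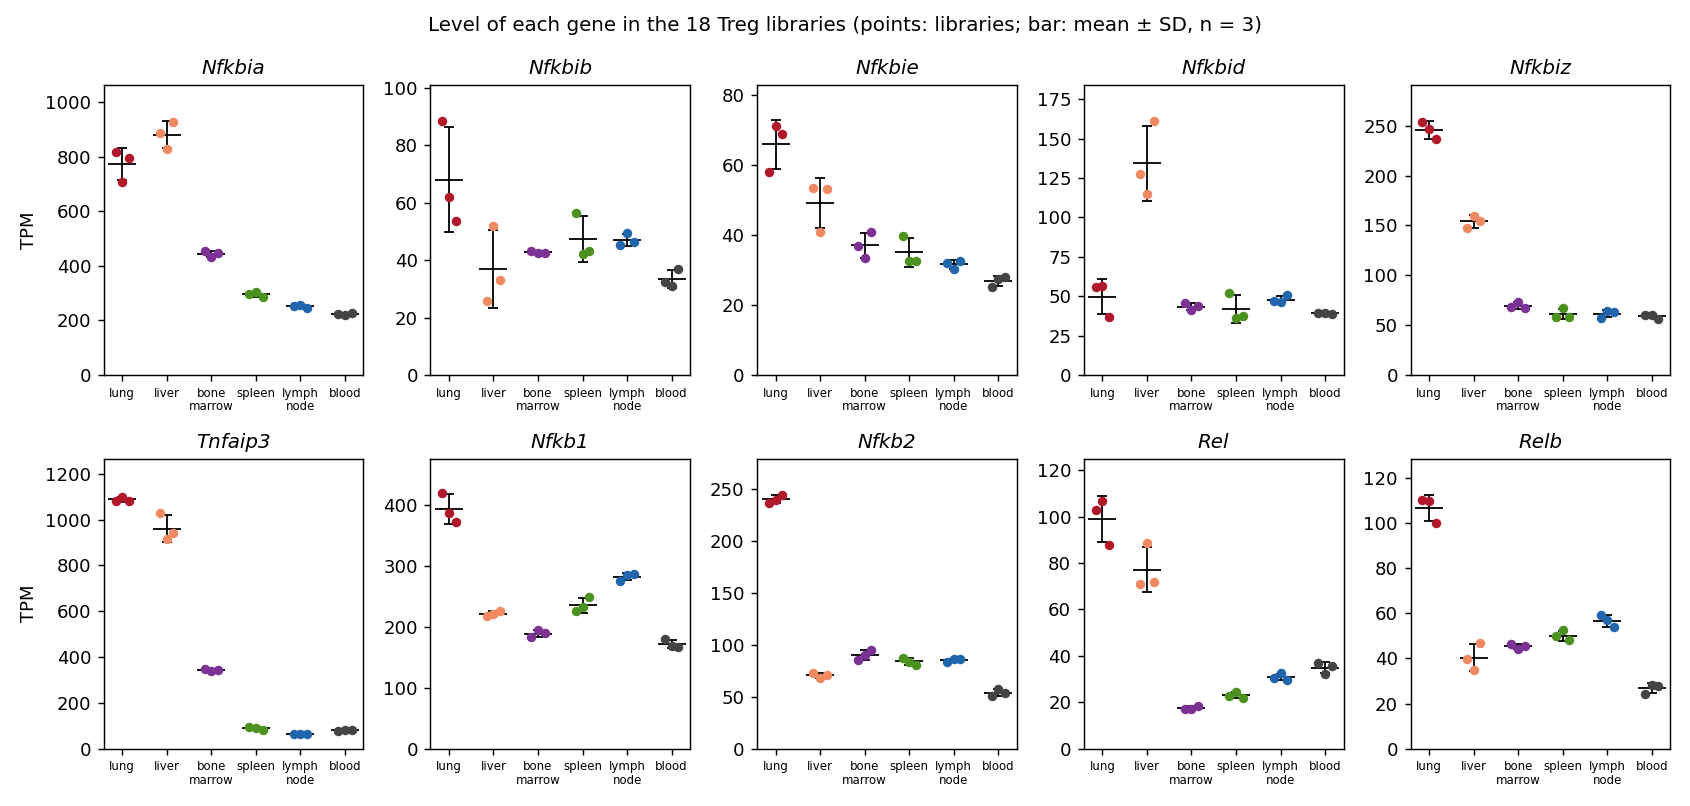
TPM of each of the 10 genes (vertical axis, linear, from 0) in the 6 organs (horizontal axis), with a point per library and a bar for mean ± SD of 3 libraries. The lung points of Tnfaip3 lie near 1088 TPM and those of lymph node near 63.94 TPM, while the points of Nfkbib overlap in most organs.

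Tnfaip3 (ENSMUSG00000019850, chromosome 10, 19000910 to 19015657, minus strand) encodes A20 and had the widest range of the 10. Its 3 lung libraries read 1082, 1099 and 1082 TPM, and its liver libraries 1029, 914 and 940.4 TPM. Bone marrow read 349.8, 340.4 and 344.1 TPM, spleen 92.8, 89.8 and 82.0 TPM, blood 76.9, 80.1 and 82.5 TPM, and lymph node 64.6, 64.7 and 62.5 TPM. Lung and liver were thus far above the lymphoid organs and blood, with bone marrow in between, and only spleen and blood overlapped. The lung mean was 17.0-fold the lymph node mean, a difference of 4.07 ± 0.05 (SE) in log2(TPM + 1), adjusted p = 4.5e-17 in limma. Liver was 15-fold above lymph node (3.89 ± 0.05) and bone marrow 5.39-fold (2.41 ± 0.05), with adjusted p-values of 5.3e-17 and 2.3e-14. Down the order of organs, each differed from the next except spleen from blood (0.14, adjusted p = 0.056). That difference passed the test with the filter at 5 TPM (0.0463), with library weights (0.0242), with abundant classes removed (0.000628) and without spleen replicate 3, liver replicate 1 or liver replicate 2 (0.014 to 0.0434), and it turned to -0.77 with scaling to T cell genes (1.63e-08). The step between lung and liver, 0.18, was small: its adjusted p of 0.017 became 0.0634 without liver replicate 2.

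Nfkbia (ENSMUSG00000021025, chromosome 12, 55489410 to 55492647, minus strand) encodes IkappaB alpha, an inhibitor that is destroyed on a signal and quickly made again. It was highest in liver, at 888.3, 828.1 and 927.7 TPM, followed by lung at 818.7, 706.6 and 796.4 TPM. Bone marrow held 454.4, 431.8 and 447.7 TPM, and spleen 297.3, 305.2 and 287.0 TPM. The lowest libraries were those of lymph node, at 252.5, 258.2 and 243.8 TPM, and of blood, at 222.7, 218.1 and 225.9 TPM. No 2 organs overlapped. Against lymph node the difference was 1.80 ± 0.06 in liver (3.5-fold, adjusted p = 1.1e-12), 1.62 ± 0.06 in lung (3.08-fold, 2.4e-12) and 0.82 ± 0.06 in bone marrow (1.77-fold, 1.2e-08). Liver exceeded lung by 0.19 ± 0.06 (adjusted p = 0.015). That call was lost without liver replicate 3 (0.0609) or lung replicate 2 (0.0747), and its sign turned to 0.16 higher in lung when libraries were scaled to T cell genes. Nfkbia and Tnfaip3 were the most abundant of the 10 genes in lung, liver and bone marrow, whereas in lymph node Nfkb1 had the highest level, at 282.9 TPM.

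The other classical inhibitors were far less abundant. Nfkbie (ENSMUSG00000023947, chromosome 17, 45555703 to 45563169, plus strand) encodes IkappaB epsilon. Its lung libraries read 58.1, 71.1 and 69.0 TPM and its liver libraries 53.4, 40.9 and 53.1 TPM, while blood, the lowest, read 25.3, 27.5 and 28.0 TPM. Lung lay above every other organ without overlap, and from bone marrow down through spleen and lymph node to blood no step between neighbours passed the test. Bone marrow (0.44, adjusted p = 0.011) and spleen (0.36, 0.03) were called above blood. The first call was lost without bone marrow replicate 3 (0.0597) and under scaling by the trimmed mean of M values (TMM, 0.0729), the second without spleen replicate 1 (0.136) or blood replicate 1 (0.105) or 2 (0.0568), and both differences turned negative with scaling to T cell genes (-0.17 and -0.53). Lung was 2.09-fold above lymph node (1.03 ± 0.12, adjusted p = 5e-06) and liver 1.55-fold (0.61 ± 0.12, adjusted p = 0.0014). The step from lung to liver, 0.42 ± 0.12 (adjusted p = 0.014), was lost without liver replicate 2 (0.0608) or lung replicate 2 (0.0528). The step from liver to bone marrow, 0.39 (0.021), was lost without liver replicate 1 or 3 or bone marrow replicate 1 or 2.

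Nfkbib (ENSMUSG00000030595, chromosome 7, 28758251 to 28767512, minus strand), which encodes IkappaB beta, varied least. Its lung libraries read 88.6, 62.1 and 53.5 TPM, its liver libraries 25.8, 51.9 and 33.2 TPM and its blood libraries 32.5, 31.0 and 37.1 TPM. Bone marrow, spleen and lymph node lay between 42.3 and 56.5 TPM. Its lung and liver libraries were spread more widely (SD 18.3 and 13.5 TPM) than those of any other organ. No neighbours in its order differed, and of its 15 pairs of organs 3 passed the test: lung against liver (0.89 ± 0.21, adjusted p = 0.0038), against bone marrow (0.63 ± 0.21, 0.024) and against blood (0.97 ± 0.21, 0.0013; 0.127 with scaling to T cell genes). The call for lung against bone marrow did not hold without lung replicate 1 (0.125) or any 1 bone marrow library (0.0539 to 0.0593), and 3 calls of liver against bone marrow, spleen and lymph node appeared without liver replicate 2. The gene overlaps Sirt2 and Ccer2 on the opposite strand, and the use of strand in counting is not given in the sources used here. Sirt2 had means of 50.01 to 66.86 TPM and Ccer2 of at most 0.1933 TPM.

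The 2 atypical, nuclear IkappaB proteins behaved differently from each other. Nfkbiz (ENSMUSG00000035356, chromosome 16, 55811375 to 55838899, minus strand) encodes IkappaB zeta, which binds NF-kappaB in the nucleus and changes which genes it acts on. Its lung libraries read 254.2, 246.7 and 236.9 TPM and its liver libraries 147.2, 159.9 and 154.8 TPM. In the other 4 organs all 12 libraries lay between 56.5 and 73.2 TPM. Lung was thus the highest, liver stood between, and among the rest no neighbours in the order differed. Against lymph node, bone marrow was called higher under TMM scaling (0.0252), with library weights (0.00682) and with scaling to T cell genes (3.93e-06). Against spleen it was called higher without spleen replicate 2 (0.0224) and with scaling to T cell genes (0.000519). Spleen was called above blood with abundant classes removed (0.0496). Bone marrow was called above blood (0.24, adjusted p = 0.021). That call was lost under TMM scaling (0.376), with abundant classes removed (0.0815) and without bone marrow replicate 2 (0.0948) or blood replicate 3 (0.0834). With scaling to T cell genes the difference turned to -0.39 (0.00149). Lung was 4.0-fold above lymph node (1.98 ± 0.07, adjusted p = 5.1e-12) and 1.6-fold above liver (0.67 ± 0.07, 3.2e-06). Liver was 2.51-fold above lymph node (1.31 ± 0.07, 1.8e-09).

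Nfkbid (ENSMUSG00000036931, chromosome 7, 30421732 to 30428746, plus strand) encodes IkappaB NS, a nuclear IkappaB known for a part in Treg cell development. Only its liver libraries stood out, at 127.5, 114.6 and 161.0 TPM. Lung read 55.7, 56.7 and 36.7 TPM, and the 12 libraries of bone marrow, spleen, lymph node and blood lay between 36.4 and 52.2 TPM. The lowest liver library was above all 15 libraries of the other organs. Liver exceeded lung 2.7-fold (1.43 ± 0.17, adjusted p = 6.6e-06) and lymph node 2.81-fold (1.46 ± 0.17, 7.9e-06), and it passed the test against bone marrow, spleen and blood too. No pair of organs without liver passed, but lung was called above spleen (0.0322) and blood (0.0114) without lung replicate 3. Lung against lymph node was 0.03 ± 0.17 (adjusted p = 0.93), and 0.67 with libraries scaled to T cell genes (adjusted p = 0.00735).

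Among the subunits, Rel (ENSMUSG00000020275, chromosome 11, 23736847 to 23770970, minus strand), which encodes c-Rel, was the only one with liver second to lung. Its lung libraries read 102.8, 106.6 and 87.8 TPM and its liver libraries 71.1, 88.4 and 71.8 TPM, so that 1 liver library overlapped lung. Blood read 36.8, 32.2 and 35.6 TPM, lymph node 30.5, 32.4 and 29.5 TPM, spleen 22.8, 24.3 and 21.8 TPM, and bone marrow 16.9, 17.1 and 18.3 TPM. Lung was 3.21-fold above lymph node (1.65 ± 0.1, adjusted p = 3.4e-09) and liver 2.5-fold (1.29 ± 0.1, 1.9e-07). At the low end, bone marrow was 1.77-fold below lymph node (-0.79 ± 0.1, 2.6e-05), a difference that shrank to -0.23 and lost its call when libraries were scaled to T cell genes. The step from lung to liver, 0.36 ± 0.1 (adjusted p = 0.014), was lost without lung replicate 2 (0.0549). Scaling to T cell genes reduced liver minus blood from 1.12 to 0.22, and its call was lost (0.117). Lymph node minus blood (-0.17, no call) was called under that scaling (-1.35), under TMM scaling (-0.37) and with library weights (-0.17). Bone marrow, next after lung and liver for Nfkbia and Tnfaip3, was thus the lowest organ for Rel.

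Nfkb2 and Relb, the pair of the NIK branch, were high in lung alone. Nfkb2 (ENSMUSG00000025225, chromosome 19, 46304320 to 46312385, plus strand) encodes a precursor that also acts as an inhibitor. Its lung libraries read 236.5, 239.2 and 243.9 TPM, and the 12 libraries of bone marrow, lymph node, spleen and liver lay between 68.1 and 94.6 TPM. Blood was lowest on TPM as deposited, at 50.4, 57.2 and 53.9 TPM, but above lymph node, spleen and liver with scaling to T cell genes. Lung was 2.81-fold above lymph node (1.48 ± 0.06, adjusted p = 3.7e-11) and 3.4-fold above liver (1.75 ± 0.06, 2.6e-11). Liver was slightly below lymph node (-0.27 ± 0.06, 0.0045), a call lost under TMM scaling (-0.10) and turned to 0.03 by scaling to T cell genes. Nfkb2 overlaps 2 genes on the opposite strand, Psd and the noncoding AC114539.1. Psd was also highest in lung, at 82.6 ± 0.71 TPM (SD, n = 3) against 22.2 ± 1.47 TPM in lymph node and 28.1 ± 7.51 TPM in liver. Whether the 2 genes share reads was not tested.

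Relb (ENSMUSG00000002983, chromosome 7, 19606217 to 19629438, minus strand) has no annotated overlap with another gene. The 3 libraries of lung were at 110.2, 110.0 and 100.2 TPM. Lymph node read 59.2, 56.9 and 53.9 TPM, spleen 49.9, 52.5 and 48.1 TPM, bone marrow 46.3, 44.3 and 45.5 TPM, liver 39.6, 34.7 and 46.8 TPM, and blood 24.1, 28.3 and 28.0 TPM. On TPM as deposited lung was well above the rest and blood below them, and from lymph node down to liver no step between neighbours passed the test. With scaling to T cell genes blood was no longer the lowest: liver minus blood became -0.32 (adjusted p = 0.0163), lymph node minus blood -0.13 and spleen minus blood -0.012. Bone marrow minus blood shrank to 0.13 and lost its call (0.387), and lung stayed the highest. The lung mean was 1.89-fold the lymph node mean (0.90 ± 0.1, adjusted p = 2.5e-06) and 2.65-fold the liver mean (1.39 ± 0.1, 3.8e-08). Liver was below lymph node (-0.49 ± 0.1, 0.0016; -0.19 and no call with scaling to T cell genes). Over the 18 libraries Relb and Nfkb2 correlated at r = 0.95, a description of 6 groups of 3 libraries.

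Nfkb1 (ENSMUSG00000028163, chromosome 3, 135584655 to 135691547, minus strand) encodes the precursor of the p50 subunit and was the most abundant subunit in every organ. Lung came first, at 420.6, 388.3 and 372.7 TPM, followed by lymph node at 275.8, 285.1 and 287.9 TPM and spleen at 225.7, 232.3 and 249.0 TPM. Liver read 218.3, 221.3 and 226.8 TPM, bone marrow 182.8, 194.4 and 189.5 TPM, and blood 179.6, 168.8 and 166.6 TPM. Lung did not overlap any other organ, and lymph node, not liver, came next on TPM as deposited. With scaling to T cell genes lung stayed the highest, but blood came second: lymph node minus blood became -0.49 (adjusted p = 1.18e-05), and liver and spleen differed from lymph node by -0.04 and 0.03, with no call. Lung was 1.39-fold above lymph node (0.47 ± 0.05, adjusted p = 3.3e-06) and 1.77-fold above liver (0.82 ± 0.05, 1.4e-08). Spleen and liver did not pass the test against each other (0.08, 0.26), nor did bone marrow and blood (0.14, 0.067). The first difference was called with abundant classes removed (0.0394). The second was called with library weights (0.00324), in the fit of those 2 organs (0.0394) and without lung or blood replicate 1 (0.0418 and 0.0486). With scaling to T cell genes the second turned to -0.49 (2.41e-05). The provisional gene model Gm43430 lies within Nfkb1 on the same strand, at means of at most 4.463 TPM. Rela, the remaining subunit, is not among the 10 and was chosen for mention after its values were seen: it was highest in lung too (147.0 ± 16.6 TPM against 112.8 ± 4.27 TPM in lymph node and 84.5 ± 20.8 TPM in liver, SD, n = 3).

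Summed over the 6 inhibitors, lung held 2292 ± 59.6 TPM and liver 2217 ± 93.3 TPM (SD, n = 3). Bone marrow held 982.1 ± 18.1, spleen 570.3 ± 28.1, lymph node 503.4 ± 7.93 and blood 460.4 ± 7.24 TPM. The 4 subunits summed to 839.6 ± 33.0 TPM in lung and to 410.2 ± 7.2 TPM in liver, against 455.7 ± 5.92 TPM in lymph node. Inhibitors therefore made up 84.4% ± 0.67 of the 10-gene total in liver, 74.2% ± 0.78 in bone marrow, 73.2% ± 0.62 in lung, 61.6% ± 0.61 in blood, 59.2% ± 1.6 in spleen and 52.5% ± 0.27 in lymph node. Lung and bone marrow overlapped in this share and no other 2 organs did. The share does not depend on how a library is scaled. RNA of other cell types in a library can still enter it, and that part was not tested. The total leaves out Rela. The split is a grouping of genes and not a measure of function. The 6 counted as inhibitors include the nuclear products of Nfkbiz and Nfkbid, and the Nfkb2 precursor, counted as a subunit, also acts as an inhibitor. No test was run on these sums, and Nfkbia and Tnfaip3 make up most of the inhibitor sum in lung and liver.

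Against lymph node, 8 of the 10 genes were higher in lung and 0 lower. Over all genes tested, 42.3% passed the test in this comparison, 14.9% higher and 27.4% lower in lung. The median difference was 1.26 over the 10 genes and -0.20 over all genes. Nfkbib (0.49 ± 0.21, adjusted p = 0.072) and Nfkbid were the genes not called. The Nfkbib difference passed the test under scaling to T cell genes (1.14) and TMM scaling (0.75), with library weights and without liver replicate 1, liver replicate 2 or lung replicate 3.

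In liver, 6 genes were higher than in lymph node and 3 lower, against 31.1% of all genes, 9.45% higher and 21.6% lower. Tnfaip3, Nfkbia, Nfkbid, Nfkbiz, Rel and Nfkbie were higher, and Nfkb1, Nfkb2 and Relb were lower. With libraries scaled to T cell genes none of the 3 was called lower. The median difference was 0.95 over the 10 genes and -0.19 over all. This comparison and that of lung share the lymph node libraries, so their values are given side by side only.

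**Figure D2:**
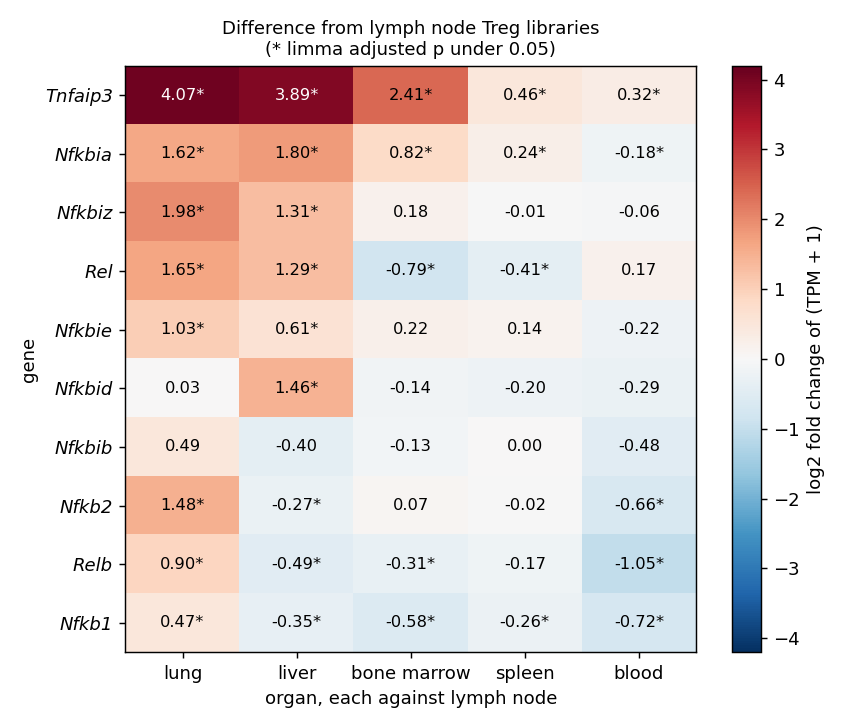
Log2 fold change of (TPM + 1) of each gene (rows) in 5 organs (columns), each against the same 3 lymph node libraries, with a star where the limma adjusted p was under 0.05. Tnfaip3 reads 4.07 in lung and 3.89 in liver, and Nfkb2, Relb and Nfkb1 are above 0 in lung and below 0 in liver, the Nfkb2 value in liver turning to 0.03 with scaling to T cell genes.

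Lung and liver were also compared directly, which involves no lymph node library. All 10 genes passed the test, 8 higher in lung and 2 higher in liver, against 34.9% of all genes, 17.3% higher and 17.6% lower in lung. Nfkb2 (1.75), Relb (1.39), Nfkbib (0.89), Nfkb1 (0.82) and Nfkbiz (0.67) were each at least 1.6-fold higher in lung. Nfkbid was lower in lung (-1.43). The other 4 differences were of at most 0.42, and each of those calls was lost when 1 of the libraries already named was left out. In a fit of the 6 lung and liver libraries alone, 4 genes were called higher in lung and 1 lower. Nfkbib was among those lost there (adjusted p = 0.188).

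**Figure D3:**
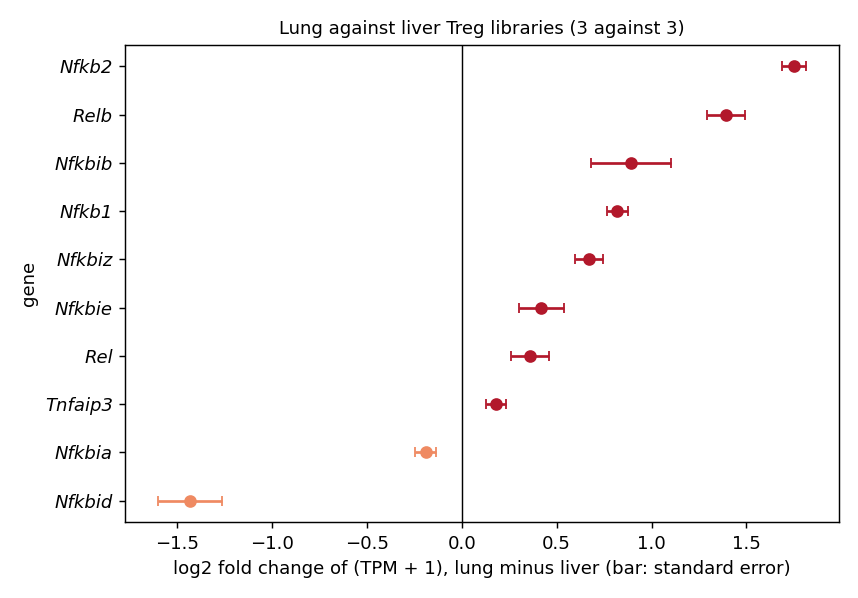
Log2 fold change of (TPM + 1), lung minus liver (horizontal axis), of each of the 10 genes (rows), with bars for the standard error. Nfkb2 at 1.75 and Relb at 1.39 lie farthest to the lung side and Nfkbid at -1.43 to the liver side.

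Bone marrow differed from lymph node in both directions: 2 genes were higher (Tnfaip3 and Nfkbia) and 3 lower (Nfkb1, Rel and Relb), where 22.5% of all genes passed, 13.7% higher and 8.89% lower. The Relb difference (-0.31, adjusted p = 0.034) was lost without any 1 of the 6 libraries (0.0514 to 0.124) and with replicate number as a block (0.0547). With scaling to T cell genes, 5 genes were higher and none lower. The median of all genes in this comparison moved by 0.46 under that scaling. The share of all genes called under it was not computed. Between spleen and lymph node, 2 genes were higher in spleen (Tnfaip3 0.46 and Nfkbia 0.24) and 2 lower (Nfkb1 -0.26 and Rel -0.41), against 14.3% of all genes, 4.44% higher and 9.87% lower. The lower Rel level was lost without spleen replicate 3 (0.0567) or lymph node replicate 2 (0.067), and neither lower call held under scaling to T cell genes, where 5 genes were called higher in spleen, or under TMM scaling. Between these 2 organs, scaling to T cell genes moved the median of all genes by 0.20.

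Lymph node and blood gave results that turned with the scaling of the libraries. On TPM as deposited, 4 genes were higher in lymph node (Relb 1.05, Nfkb1 0.72, Nfkb2 0.66 and Nfkbia 0.18) and Tnfaip3 was lower (-0.32), against 37.4% of all genes, 21% higher and 16.4% lower. The Nfkbia call was lost without lymph node replicate 1 or 2 or blood replicate 2 (0.0523 to 0.0729). With libraries scaled to T cell genes, which moved the median of all genes by -0.96, no gene was higher in lymph node and 9 were lower. The deposited TPM of blood libraries includes the large myeloid share given above, and relative to T cell genes Tnfaip3 was lower in lymph node than in blood by -1.52. The difference in Tnfaip3 was the only one of the 10 with the same sign and call under every alternative run.

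Markers of other cell types also differed among the organs. In lung, all 14 myeloid markers had a mean of at least 1 TPM and summed to 1705 to 1781 TPM, against 157.3 to 373.4 TPM in liver (11 of 14), 626.9 to 774.7 in spleen (14 of 14) and 40.71 to 75.62 in lymph node (6 of 14). The 3 lung epithelium markers Sftpc, Scgb1a1 and Sftpa1 summed to 220.7 to 291.1 TPM in lung and were listed at 0 in all liver, bone marrow, lymph node and blood libraries. The 3 erythroid markers Hba-a1, Hbb-bs and Alas2 summed to 6412 to 6723 TPM in liver, 776.8 to 941.5 TPM in lung and 45.09 to 52.08 TPM in lymph node. The 4 dendritic cell markers were Flt3, Itgax, H2-Ab1 and Cd74, of which B cells share the last 2. They summed to 738.6 to 812.2 TPM in lung, 327.5 to 389.3 in liver and 475.7 to 480.8 in lymph node. The deposited TPM of Relb, Nfkb2 and Nfkb1 had the same order of these 3 organs, and the myeloid and B cell sums had other orders by mean. A link with these genes was not tested. Of the 4 dendritic markers, 3 had a mean of at least 1 TPM in lung, and 2 in liver and in lymph node. The dendritic sums reached 1602 to 1643 TPM in spleen (3 of 4), 972.4 to 988.2 in bone marrow (4 of 4) and 2323 to 2481 in blood (4 of 4). The 5 B cell markers had mean sums of 71.95 TPM (liver), 117.8 (lung), 131.8 (lymph node), 459.5 (bone marrow), 478.3 (spleen) and 532.4 (blood), and the 6 platelet markers averaged 2142 TPM in blood and at most 75.76 TPM elsewhere. Hepatocyte markers summed to 5.1 to 15.2 TPM in liver, with Ttr listed at 0. The 8 immediate early genes summed to 3100 to 3425 TPM in lung, 4476 to 4910 in liver, 6344 to 6442 in bone marrow, 2784 to 2927 in blood, 893.4 to 908.9 in spleen and 580.2 to 596.2 in lymph node. The part of these cells and of the immediate early genes in the results was not tested.

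**Figure D4:**
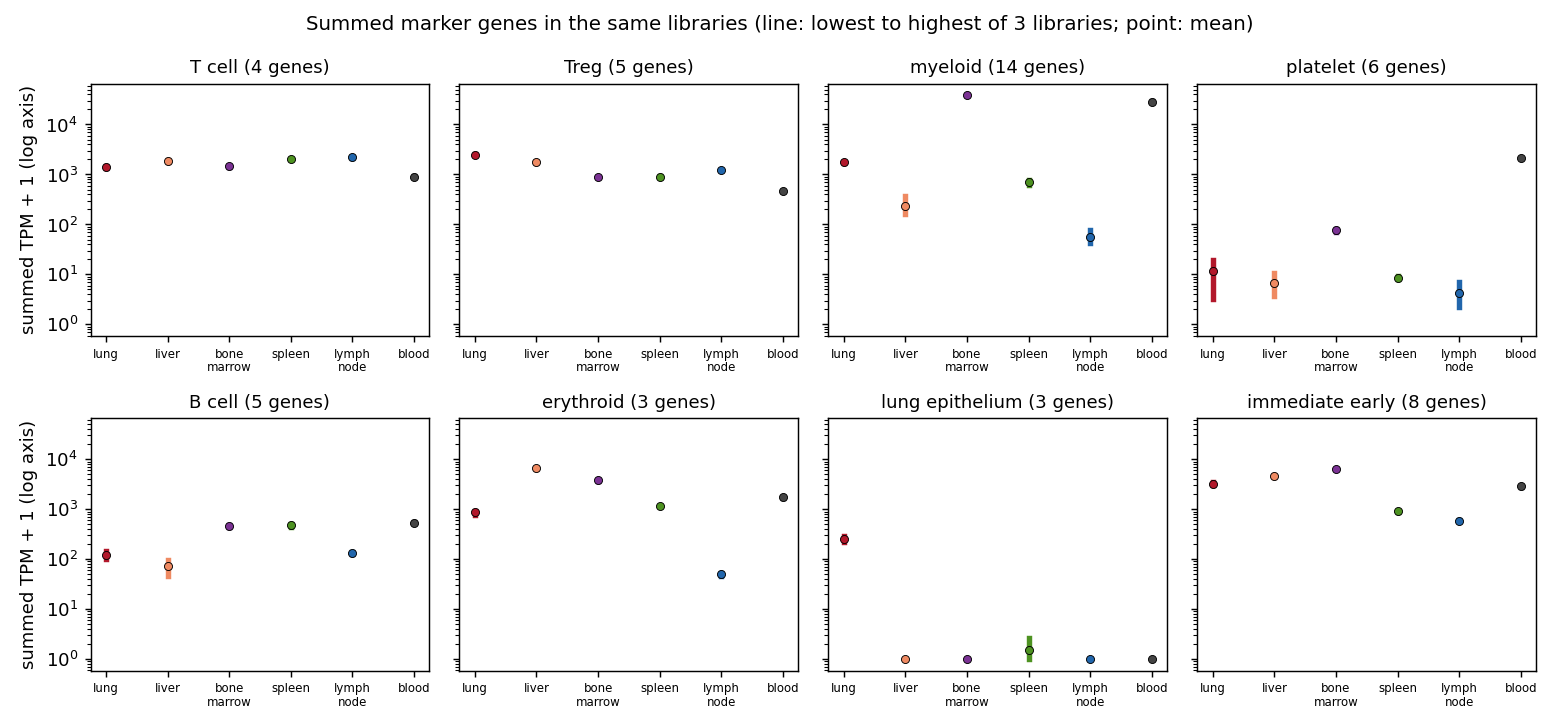
Summed TPM + 1 of 8 marker lists (vertical axis, logarithmic) in the 6 organs (horizontal axis); the point is the mean and the line runs from the lowest to the highest of 3 libraries. The myeloid sum averages 38610 TPM in bone marrow and 28710 TPM in blood, against 54.19 TPM in lymph node.

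Other genes of the pathway were followed in 4 lists. Of the 17 receptors and adaptors that feed the pathway, 16 were tested and 15 differed among the 6 organs, against 68% of all genes tested. Relative to lymph node, 10 were higher and 3 lower in lung, where 14.9% and 27.4% of all genes were, and 3 were higher and 6 lower in liver, where 9.45% and 21.6% were. The costimulatory receptor gene Tnfrsf9 stood at 422.6 ± 16.5 TPM in lung, 101.3 ± 9.86 in lymph node, 62.12 ± 16.5 in liver and 8.98 ± 1.18 in blood (SD, n = 3). It differed from lymph node by 2.05 in lung and by -0.72 in liver. Il1rl1, which encodes the interleukin-33 receptor, read 266.4 ± 20.6 TPM in lung, 155.8 ± 22.0 in liver, 113.6 ± 2.19 in bone marrow and 25.48 ± 2.98 in lymph node, and both lung (3.34) and liver (2.56) were higher than lymph node. Ltbr and Tlr2, which myeloid cells also express, were high in blood, at 26.94 ± 2.89 and 44.15 ± 2.27 TPM, and Tlr2 reached 45.8 ± 4.08 TPM in lung.

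Of 20 genes of adaptors, kinases and their partners, all were tested and 18 differed among the organs (68% of all genes). In lung 6 were higher than in lymph node and 8 lower (14.9% and 27.4% of all genes), and in liver 4 were higher and 5 lower (9.45% and 21.6%). The median difference was 0.02 in lung and -0.01 in liver. Map3k14, which encodes NIK, read 64.3 ± 4.36 TPM in lung, 31.04 ± 3.75 in liver and 29.28 ± 0.596 in lymph node. It was higher in lung (1.11, adjusted p = 2.3e-06) and did not pass the test in liver (0.07, 0.7). Birc3, which encodes a ubiquitin ligase that restrains NIK, was higher than in lymph node in lung (1.28) and in liver (0.43), and the adaptor gene Traf1 likewise (0.79 and 0.37). Ikbke, which encodes an IKK-related kinase, was highest in lymph node, at 317.1 ± 8.15 TPM, and lower in lung (-1.65) and liver (-0.48).

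Of 19 other subunits, IkappaB-like proteins and ubiquitin regulators, 14 differed among the organs, a share near the 68% of all genes. Relative to lymph node 5 were higher and 7 lower in lung (14.9% and 27.4% of all genes), and 1 was higher and 4 lower in liver (9.45% and 21.6%), the last a share near that of all genes. Bcl3, a nuclear IkappaB family member, was higher in lung (102.1 ± 14.4 against 50.98 ± 0.925 TPM, 0.98, adjusted p = 0.0069), and its liver libraries were spread from 26.1 to 79.7 TPM. Zc3h12a, which encodes the RNase regnase-1, was higher in lung (1.58) and liver (0.84). Rnf11, a partner of A20, and Nkiras2, which encodes a Ras-like protein that binds IkappaB, had their highest means in blood, at 90.82 ± 2.41 and 48.37 ± 6.7 TPM.

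Of 25 genes reported as NF-kappaB targets, 23 differed among the organs (68% of all genes). Against lymph node 14 were higher and 6 lower in lung (14.9% and 27.4% of all genes), and 15 higher and 3 lower in liver (9.45% and 21.6%). In bone marrow 10 were higher and 7 lower (13.7% and 8.89%), and in spleen 8 were higher and 5 lower (4.44% and 9.87%). The median difference was 0.58 in lung and 1.02 in liver, where all genes had -0.20 and -0.19. The 4 with the widest range, Il1b, Cxcl2, Ccl3 and Ccl4, encode a cytokine and chemokines that myeloid cells make. Il1b stood at 1576 ± 39.1 TPM in blood and at 213.1 ± 0.954 in bone marrow, and lower elsewhere, with lung at 60.13 ± 4.77, spleen at 22.48 ± 7.86, liver at 7.173 ± 4.52 and lymph node at 1.013 ± 0.95. It is itself on the myeloid list. Cxcl2 was highest in lung, at 118.9 ± 18 TPM, and Ccl4 in blood, at 33.61 ± 1.64 TPM. The part of myeloid RNA in these 4 genes was not tested.

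As a description, 9415 genes were ranked by the correlation of their log2(TPM + 1) with each of the 10 over the 18 libraries, which fall into 6 groups of 3 and share organ, dissociation and composition. The genes most like Tnfaip3 were Irf2bp2 (r = 0.993), Nfkbia (0.978) and Cpm (0.978), and those most like Nfkbia were Rora (0.979), Tnfaip3 (0.978) and Cenpa (0.978). Nfkbiz was closest to Gpr132 (0.988), Ramp3 (0.987) and Vps37b (0.986), all highest in lung, with Vps37b at a mean of 1164 TPM there. For Nfkbie the closest were Mif4gd (0.949), Rundc3b (0.946) and Slc3a2 (0.945). Nfkbid, the gene high in liver alone, was closest to the heat shock gene Hsph1 (0.946), whose mean was 508.3 TPM in liver and 82.61 TPM in blood, then to Asdurf (0.943) and Sap18 (0.931). Nfkbib had the weakest likenesses, to Ywhaq (0.881), Timm23 (0.88) and Zfp64 (0.873).

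Among the subunits, Rel was closest to Trp53inp1 (0.967), the Y-linked gene Ddx3y (0.961) and the costimulatory receptor gene Cd28 (0.957), all 3 lowest in bone marrow. Nfkb2 was closest to Gypc (0.976), Arhgap31 (0.969) and Relb (0.951), and Relb to Tnfrsf18 (0.951), Nfkb2 (0.951) and Tomm34 (0.948). Nfkb1 was closest to Lrig1 (0.963), the interleukin-21 receptor gene Il21r (0.962) and Bzw2 (0.956). Between the 10 genes themselves, r ran from -0.19 for Nfkbib and Nfkbid to 0.98 for Nfkbia and Tnfaip3.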

How the data were processed

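Directional Illumina libraries were prepared from RNA purified with RNAiso PLUS and a clean-up column, per the labels' protocols. STAR, RSEM and the build mm10 are named in the submitters' processing notes. Their versions, the annotation and whether strand was used in counting are not given in the sources used here. The TPM values were deposited by the authors, for 55487 Ensembl gene IDs in each library. A TPM value is a share of a library's RNA, so abundant RNA of any kind lowers all other genes, and it keeps no depth.

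Symbols and coordinates came from GENCODE M21 (GRCm38), which named 55141 of the IDs. No 2 of the 18 tables were identical. TPM values were tested as log2(TPM + 1), which understates the change of low genes, with limma 3.58.1 (R 4.3.3, eBayes with trend and robust settings) in 1 model with a mean per organ. The 16694 genes tested averaged 1 TPM or more in at least 1 organ. F tests over 6 and over 4 organs and 15 contrasts between 2 organs were adjusted by Benjamini-Hochberg over all genes tested and called under 0.05. A fold is the ratio of mean TPM, and SE is the standard error of the log2 difference. Fits were tested on simulated data. The design allowed for counts or normalized values, and the form for normalized values applied. Tables were handled in Python 3.11.15 with pandas 2.3.3.

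The 10 genes and the lists of other pathway genes and of cell markers were chosen with earlier results of these data known. A pathway gene and a marker gene on them are not reported here and were left out of list counts and sums. Of each pathway list, up to 4 genes are named: those called by the F test over 6 organs, with at least 10 TPM in an organ and the widest range between organ means. For each of the 10 genes, the 3 genes of highest correlation are named, leaving out genes named by number and receptor segments. Psd, Sirt2, Ccer2, AC114539.1 and Gm43430 are named because they overlap one of the 10. Alternatives were a pseudocount of 0.1, no filter, a filter at 5 TPM, scaling to 20 T cell genes (median ratio), TMM factors, removal of 141 mitochondrial, ribosomal protein and haemoglobin genes, library weights, replicate number as a block, fits of the 2 organs compared, and each library left out. The fit without blood and bone marrow libraries was added after seeing the data.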

Additional observations from a re-analysis of the deposited data

How the results depend on the processing

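All 10 genes differed among the 6 organs under every alternative that gives this test. Of the 150 differences between 2 organs, 77 kept their side of the threshold under all alternatives and 109 under all but scaling to T cell genes. None of these changed sign where either fit passed the test. Differences that passed in neither fit could change sign: Nfkbiz, lymph node minus blood, went from 0.06 to -0.15 under TMM scaling. Scaling to T cell genes moved the median of all genes by -0.96 to 0.46 on the log2 scale, TMM scaling by -0.15 to 0.19 and removal of abundant classes by -0.14 to 0.09. The pseudocount of 0.1 and the absence of a filter changed none of the 150, and the filter at 5 TPM changed 1.

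Scaling to T cell genes reversed differences mostly against blood. Lymph node minus blood became -1.03 for Nfkbia (-0.030 under TMM scaling), -0.71 for Nfkbib, -0.91 for Nfkbid, -0.95 for Nfkbie, -1.14 for Nfkbiz, -0.49 for Nfkb1, -0.55 for Nfkb2 and -0.13 for Relb. Spleen minus blood became -0.50 for Nfkbia, -0.82 for Nfkbid, -0.53 for Nfkbie, -0.86 for Nfkbiz, -0.77 for Tnfaip3, -0.46 for Nfkb1, -0.28 for Nfkb2 and -0.012 for Relb. Liver minus blood became -0.81 for Nfkbib, -0.053 for Nfkbie, -0.54 for Nfkb1, -0.51 for Nfkb2 and -0.32 for Relb. Bone marrow minus blood became -0.48 for Nfkbid, -0.17 for Nfkbie, -0.39 for Nfkbiz and -0.49 for Nfkb1. Away from blood, lung minus liver became 0.16 for Nfkbia, liver minus bone marrow -0.044 for Nfkb1, liver minus lymph node 0.031 for Nfkb2, bone marrow minus lymph node 0.26 for Relb, and spleen minus lymph node 0.28 for Nfkbiz, 0.033 for Nfkb1 and 0.27 for Nfkb2. The cause was not tested.

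Counts of the 10 genes moved as follows, and shares of all genes were not computed under the alternatives. Scaled to T cell genes, 0 were lower in liver, 5 higher and 0 lower in bone marrow, and 5 higher and 0 lower in spleen, each than in lymph node, while 0 were higher and 9 lower in lymph node than in blood, and 1 lower in lung than in liver. Under TMM scaling, 0 were lower in spleen than in lymph node, 2 lower in lymph node than in blood and 1 lower in lung than in liver. With abundant classes removed, and without the blood and bone marrow libraries, 1 was lower in spleen than in lymph node. With library weights, 4 were higher in bone marrow than in lymph node, 7 higher and 2 lower in lymph node than in blood, and 5 higher and 1 lower in lung than in liver. In fits of the 2 organs alone, 7 were higher in lymph node than in blood, and 4 higher and 1 lower in lung than in liver.

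With 1 library left out, between 6 and 8 genes were higher and 1 to 2 lower in lung than in liver, 8 to 9 higher in lung than in lymph node, 3 to 5 higher in lymph node than in blood, 1 to 2 lower in spleen and 2 to 3 lower in bone marrow than in lymph node. Same-numbered libraries of 2 organs deviated from their group means with r of -0.0882 to 0.112. In 0 of 15 pairs of organs were all 3 values over 0.1. With group means of 3 libraries, such values cannot tell whether same-numbered libraries share animals or sorts. With replicate number as a block, 10 genes again differed among the 6 organs, and the block changed 1 of the 150 calls, Relb in bone marrow against lymph node. Liver and lung libraries varied most between replicates, which limits what small steps between those 2 organs can show.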
